A study of Homo sapiens with 6 samples.

Results

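The enzymes that remove superoxide and peroxides were followed in MDA-MB-231 cells, an established line from a human breast cancer of the triple-negative type. The genes were taken by symbol from the deposited gene tables and were the superoxide dismutases SOD1 and SOD2, catalase (CAT), the glutathione peroxidases GPX1, GPX3, GPX4, GPX7 and GPX8, and AIFM2 and ACSL4, which act on lipid peroxidation. Each of these 10 genes had 1 row among the 58656 gene rows, and all 10 were among the 16481 genes that passed the filter on low counts. Cells received mitocurcumin, a curcumin derivative directed to mitochondria, at 5 µM for 9 hours, or the DMSO vehicle for the same 9 hours, and polyadenylated RNA of 3 libraries per group was sequenced. The study asked how the compound alters gene expression in this line. Replicates carry the word biological in the labels, but separate cultures are not stated, and p-values therefore rest on the spread between these libraries, which may be technical.

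Superoxide dismutases turn superoxide, which leaks from the respiratory chain among other sources, into hydrogen peroxide. SOD1 does so with copper and zinc mainly in the cytosol, and SOD2 with manganese in the mitochondrial matrix. Catalase, in peroxisomes, and the glutathione peroxidases then reduce hydrogen peroxide, and GPX4 also reduces peroxides of membrane lipids. AIFM2, known as FSP1, regenerates the reduced form of coenzyme Q at the plasma membrane, and ACSL4 loads polyunsaturated fatty acids for incorporation into phospholipids, where they can be peroxidised in ferroptosis, an iron-dependent form of cell death.

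The 5 glutathione peroxidases fall into a class that reads a TGA codon as selenocysteine and a class with a cysteine codon at the same place. Coding stretches of 33 bases around this active-site codon, from GENCODE release 29 transcripts on GRCh38, are shown 5′ to 3′ because they separate the family independently of expression, with the active-site codon in capitals.
GPX1: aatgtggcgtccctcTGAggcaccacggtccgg
GPX3: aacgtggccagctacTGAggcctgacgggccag
GPX4: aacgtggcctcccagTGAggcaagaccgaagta
GPX7: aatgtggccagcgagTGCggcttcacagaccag
GPX8: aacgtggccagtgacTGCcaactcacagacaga
The TGA codon lies on chromosome 3 at 49358132 to 49358134 on the minus strand in GPX1, on chromosome 5 at 151025469 to 151025471 on the plus strand in GPX3, and on chromosome 19 at 1105403 to 1105405 on the plus strand in GPX4. Each of these TGA codons is annotated as selenocysteine. The cysteine codon lies on chromosome 1 at 52606714 to 52606716 in GPX7 and on chromosome 5 at 55161024 to 55161026 in GPX8, both on the plus strand.

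Libraries held 23146822 to 29104681 estimated counts. On principal components of log2 CPM (counts scaled to a library of 1000000), the first component, with 51.6% of the variance, separated the groups, and vehicle replicate 1 stood apart on the second component at 31.3, against -17.1 and -17.2 for the other vehicle libraries. Genes of this line (VIM, CD44, AXL, ZEB1 and CAV1) summed to 6017 to 6205 CPM in mitocurcumin libraries and 6005 to 6021 CPM in vehicle libraries. Within this sum, VIM had 2313 to 2380 CPM in mitocurcumin libraries and 2150 to 2189 CPM in vehicle libraries. ZEB1 had 150 to 167 and 121 to 137 CPM in the same order, and CAV1 818 to 872 and 900 to 984 CPM. CD44 and AXL overlapped between the groups. The receptor genes ESR1 and PGR were under 1 CPM in all 6 libraries. ERBB2, which encodes the receptor HER2, stood at 30.3 to 35.5 CPM in mitocurcumin libraries and 37.2 to 48.6 CPM in vehicle libraries. Sums over 5 leukocyte markers were 6.97 to 7.59 CPM in mitocurcumin libraries and 8.99 to 10.1 CPM in vehicle libraries, over 3 endothelial markers 6.05 to 6.91 CPM and 11.6 to 15.02 CPM, and over 4 fibroblast markers 14.3 to 17.3 CPM and 19.9 to 24.4 CPM. CD3E, CDH5 and VWF were each under 1 CPM in all 6 libraries, and HBA1 and HBB were at 0 in all of them. PECAM1 made up most of the endothelial sum, at 6.05 to 6.78 CPM in mitocurcumin libraries and 11.46 to 14.98 CPM in vehicle libraries. In the same order, LYZ had 4.05 to 4.64 and 5.04 to 5.67 CPM, and COL1A1 8.12 to 10.14 and 8.47 to 8.59 CPM. COL1A2 had 5.57 to 6.45 and 10.47 to 14.77 CPM. The 4 luminal and tight epithelial markers, mostly KRT8, summed to 235 to 253 CPM and 263 to 279 CPM. The part of these markers in the results was not tested.

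Of the 10 genes, SOD2, AIFM2 and GPX8 rose and GPX3 fell at an adjusted p under 0.05, while SOD1, CAT, GPX1, GPX4, GPX7 and ACSL4 did not pass the test. The test was edgeR's quasi-likelihood F-test with Benjamini-Hochberg adjustment over all genes tested, and changes below are log2 fold changes of mitocurcumin over vehicle ± SE. The 3 higher members stand beside 14.7% of all tested genes called higher, the 1 lower member beside 17.8% called lower, and the 4 called members beside 32.5% called either way. The groups did not overlap in the same 4 members, while 44.9% of all tested genes had groups that did not overlap. The median change was 0.07 over the 10 members and -0.01 over all genes tested, so as a group the members were called about as often as other genes. In these bulk libraries, fewer cells with a transcript and less of the transcript per cell cannot be told apart.

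**Figure D1:**
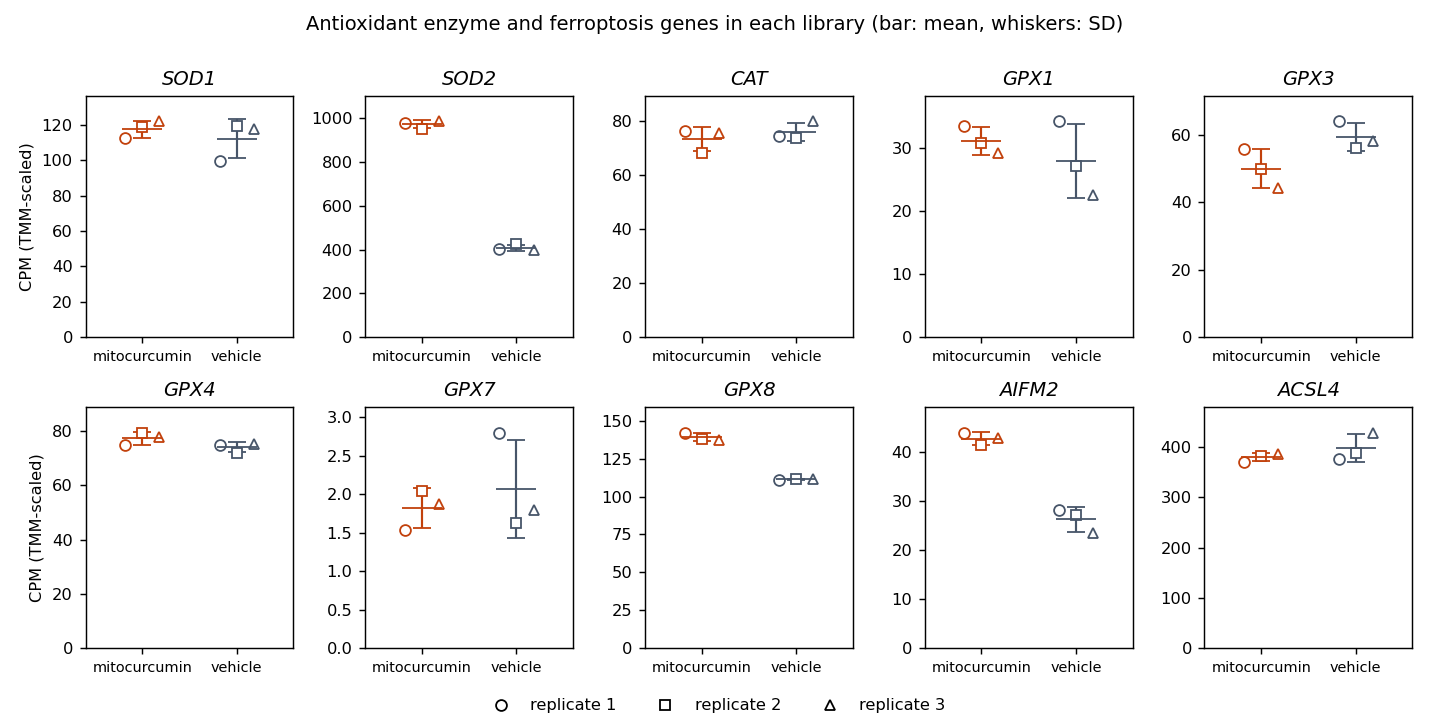
CPM of each of the 10 genes (vertical axis, linear, from 0) in the mitocurcumin and vehicle libraries, with 1 symbol per replicate and bars for the mean and SD of 3 libraries. The groups are apart for SOD2, GPX3, GPX8 and AIFM2 and overlap for the other 6 genes.

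SOD2 (Entrez 6648, GRCh38 chromosome 6, 159669069 to 159762281, minus strand) was the only member with at least a 2-fold change, where 2.25% of all tested genes were called higher by at least 2-fold. It stood at 981, 952 and 986 CPM in mitocurcumin replicates 1 to 3, against 403, 425 and 396 CPM in the vehicle libraries. Every mitocurcumin library lay above every vehicle library by a wide margin, and the spread within a group was small, with a coefficient of variation of 1.90% in mitocurcumin libraries and 3.67% in vehicle libraries. The change was 1.25 ± 0.05, a 2.38-fold rise with a 95% interval of 2.20 to 2.58 (edgeR adjusted p = 3.35e-11). SOD2 stood above 99.2% of tested genes in mean CPM, which does not correct for transcript length. Its fold ranked 246 among the 2425 genes called higher.

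SOD1 (Entrez 6647, chromosome 21, 31659693 to 31668931, plus strand) had 112, 119 and 122 CPM in mitocurcumin libraries, against 99.5, 119 and 118 CPM in vehicle libraries. The groups overlapped, and vehicle replicate 1 was the lowest library. The change of 0.07 ± 0.07 had a 95% interval of -0.08 to 0.21 and did not pass the edgeR test (adjusted p = 0.489). The log2 ratio of SOD2 to SOD1 counts within a library, which no scaling between libraries can move, was 3.126, 3.004 and 3.015 in mitocurcumin libraries and 2.018, 1.835 and 1.751 in vehicle libraries. The mitochondrial form thus gained on the cytosolic form at the transcript level by 1.18 log2 units, without overlap between the groups.

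Libraries were stranded, but the sources used here do not give whether counting used strand. Without it, reads from any exon stretch that SOD2 shares with a neighbour on the opposite strand cannot be told apart. Only whole spans were compared, and whether exons overlap was not examined. The span of the deposited SOD2 row covers WTAP, a subunit of the RNA m6A methyltransferase complex, on the opposite strand, and reaches the start of ACAT2, a cytosolic acetyl-CoA acetyltransferase, also on the opposite strand. WTAP changed by 0.34 ± 0.06 (132 CPM in mitocurcumin libraries and 104 CPM in vehicle libraries on average), and ACAT2 changed by -0.23 ± 0.07 (56.1 and 66.1 CPM). Both passed the edgeR test, with adjusted p-values of 3.03e-04 and 0.0114. Each was well under SOD2 in CPM. The noncoding row SOD2-OT1, on the same strand, held at most 7.11 counts in a library. All 5 pseudogene rows named for SOD1, SOD2 or GPX1 were at 0 counts in every library.

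Catalase (CAT, Entrez 847, chromosome 11, 34438934 to 34472060, plus strand) had 76.6, 68.3 and 75.6 CPM in mitocurcumin libraries, against 74.7, 73.8 and 80.0 CPM in vehicle libraries. The groups overlapped and mitocurcumin replicate 2 was the lowest library. Its change of -0.05 ± 0.07, with a 95% interval of -0.19 to 0.09, did not pass the edgeR test (adjusted p = 0.615).

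Among the selenocysteine enzymes, GPX3 was the only member that fell, by a small amount. GPX3, the secreted plasma glutathione peroxidase (Entrez 2878, chromosome 5, 151020591 to 151028988, plus strand), had 55.9, 49.8 and 44.2 CPM in mitocurcumin libraries, against 63.9, 56.0 and 58.0 CPM in vehicle libraries. The groups were apart by a narrow margin, with mitocurcumin replicate 1 just under vehicle replicate 2. The change was -0.25 ± 0.09, a fold of 0.842 with a 95% interval of 0.742 to 0.954 (edgeR adjusted p = 0.0347). The call was lost when mitocurcumin replicate 2 or 3 was left out (edgeR adjusted p = 0.127 and 0.203, changes of -0.24 and -0.17), and likewise for vehicle replicate 1 or 3 (adjusted p = 0.0507 and 0.0718, changes of -0.19 and -0.25). Its adjusted p ranged from 0.00704 to 0.203 over 18 alternatives.

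GPX4, the lipid hydroperoxide reductase that guards against ferroptosis (Entrez 2879, chromosome 19, 1103994 to 1106779, plus strand), had 74.7, 79.4 and 77.8 CPM in mitocurcumin libraries, against 74.9, 71.9 and 75.2 CPM in vehicle libraries. The groups overlapped at a tight spread. Its change of 0.06 ± 0.06 did not pass the edgeR test (adjusted p = 0.464), and the 95% interval of the fold ran from 0.957 to 1.14.

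GPX1, the cytosolic and mitochondrial glutathione peroxidase (Entrez 2876, chromosome 3, 49357176 to 49358353, minus strand), had 33.6, 30.8 and 29.2 CPM in mitocurcumin libraries, against 34.2, 27.1 and 22.6 CPM in vehicle libraries. Vehicle replicate 1 was the highest of the 6 libraries and vehicle replicate 3 the lowest. The change was 0.16 ± 0.12 with a 95% interval of -0.11 to 0.42, and did not pass the edgeR test (adjusted p = 0.369). Without vehicle replicate 1, GPX1 changed by 0.33 and passed (edgeR adjusted p = 0.00614, in a range of 0.00614 to 0.845 over the alternatives), while without vehicle replicate 3 the change was 0.04 (adjusted p = 0.845).

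Of the cysteine enzymes, both of which reside in the endoplasmic reticulum, GPX8 rose and GPX7 did not pass the test. GPX8 (Entrez 493869, chromosome 5, 55160171 to 55167297, plus strand) had 142, 138 and 137 CPM in mitocurcumin libraries, against 111, 111 and 112 CPM in vehicle libraries. The groups were clearly apart, and the vehicle libraries differed by a coefficient of variation of only 0.386%. The change was 0.32 ± 0.05, a 1.25-fold rise with a 95% interval of 1.16 to 1.35 (edgeR adjusted p = 1.57e-04). CDC20B, whose span contains GPX8 on the opposite strand, held at most 4 counts in a library.

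GPX7 (Entrez 2882, chromosome 1, 52602371 to 52609051, plus strand) was the least abundant member, at 1.54, 2.05 and 1.87 CPM in mitocurcumin libraries, against 2.80, 1.62 and 1.79 CPM in vehicle libraries. Vehicle replicate 1 was the highest library and the groups overlapped. The change of -0.18 ± 0.27 had a wide 95% interval, -0.76 to 0.39, and did not pass the edgeR test (adjusted p = 0.653). That interval holds the change seen in GPX8, and the value turned to 0.09 when vehicle replicate 1 was left out. Whether the selenocysteine and cysteine classes differed in their response was not tested. Within libraries, the log2 ratio of GPX8 to GPX4 counts was 0.93, 0.80 and 0.82 in mitocurcumin libraries and 0.56, 0.63 and 0.57 in vehicle libraries, and that of GPX3 to GPX4 was -0.42, -0.67 and -0.82 in mitocurcumin libraries and -0.23, -0.36 and -0.37 in vehicle libraries. Neither ratio overlapped between the groups.

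**Figure D2:**
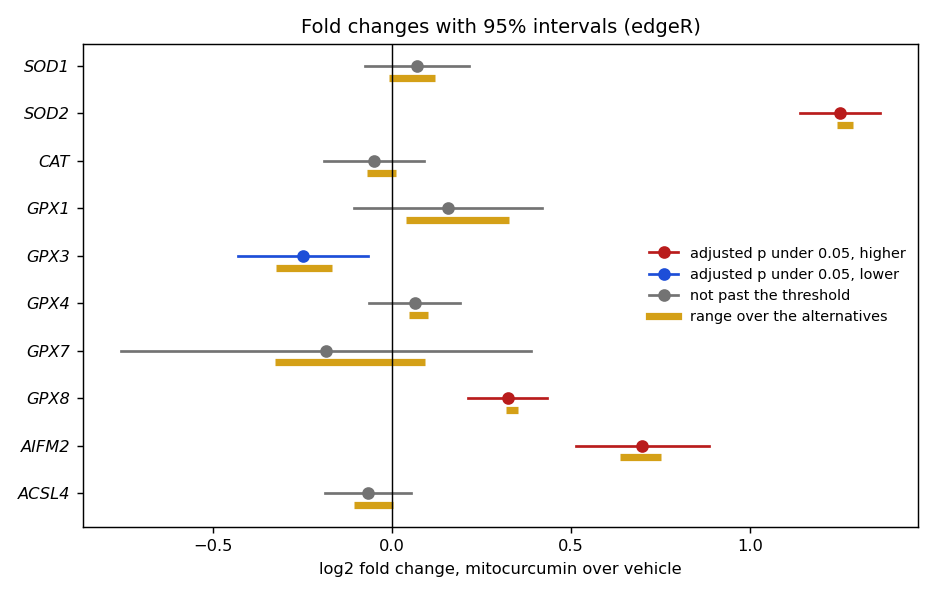
Log2 fold change of mitocurcumin over vehicle for each gene (horizontal axis), as points with 95% intervals from the edgeR fit, coloured by call, with a thick bar below each for the range over 18 alternative settings. SOD2, AIFM2 and GPX8 lie above 0 with narrow ranges, GPX3 lies below 0, and the intervals of the other 6 genes span 0.

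AIFM2, which encodes the coenzyme Q reductase FSP1, had the next largest rise after SOD2. It lies on chromosome 10 (Entrez 84883, 70112271 to 70132825, minus strand) and had 43.8, 41.3 and 42.7 CPM in mitocurcumin libraries, against 28.1, 27.2 and 23.4 CPM in vehicle libraries. The groups were far apart, with vehicle replicate 3 the lowest library. The change was 0.70 ± 0.09, a 1.62-fold rise with a 95% interval of 1.43 to 1.85 (edgeR adjusted p = 1.24e-05). MACROH2A2, a histone variant gene on the opposite strand that overlaps the end of AIFM2, also passed, at 1.57 ± 0.50 (edgeR adjusted p = 0.0228), but at 0.695 CPM in mitocurcumin libraries and 0.229 CPM in vehicle libraries.

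ACSL4, the acyl-CoA synthetase of polyunsaturated fatty acids (Entrez 2182, chromosome X, 109641335 to 109733257, minus strand), had 370, 382 and 385 CPM in mitocurcumin libraries, against 375, 388 and 428 CPM in vehicle libraries. The groups overlapped, and vehicle replicate 3 was the highest library. The change of -0.07 ± 0.06, with a 95% interval of -0.19 to 0.05, did not pass the edgeR test (adjusted p = 0.408). The log2 ratio of AIFM2 to ACSL4 counts was -3.08, -3.21 and -3.17 in mitocurcumin libraries and -3.74, -3.83 and -4.19 in vehicle libraries. The transcript of the guard enzyme thus gained on that of the substrate-loading enzyme by 0.77 log2 units, without overlap. Each count ratio given here for the members pairs a called gene with an uncalled one. Its separation between groups is therefore largely that of the called gene, and adds no separate evidence. The noncoding row LOC105373311, opposite the start of ACSL4, held at most 76.9 counts.

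The starts of AIFM2 and GPX8 are shown because they are the members whose promoter window held a motif of a stress-responsive factor. RefSeq windows (GRCh38.p14) from 250 bases before to 50 bases after the start were given for 9 of the 10 genes, SOD1 being without one, as 14 windows in all, 4 of them for SOD2. They were searched on both strands for the core of the antioxidant response element of NRF2 (TGACNNNGC), the core of the C/EBP-ATF response element of ATF4 and CHOP (TGATGNAA), a kappaB site of NF-kB and the heat shock element of HSF1. The matched letters are in capitals in the windows chr10:70132776-70133075 (minus strand) and chr5:55159921-55160220 (plus strand).
AIFM2: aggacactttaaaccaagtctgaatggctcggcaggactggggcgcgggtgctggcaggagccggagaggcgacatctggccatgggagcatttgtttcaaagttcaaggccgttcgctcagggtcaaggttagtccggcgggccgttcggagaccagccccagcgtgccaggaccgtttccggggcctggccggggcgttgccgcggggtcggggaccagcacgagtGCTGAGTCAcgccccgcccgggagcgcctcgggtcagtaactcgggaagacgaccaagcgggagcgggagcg
GPX8: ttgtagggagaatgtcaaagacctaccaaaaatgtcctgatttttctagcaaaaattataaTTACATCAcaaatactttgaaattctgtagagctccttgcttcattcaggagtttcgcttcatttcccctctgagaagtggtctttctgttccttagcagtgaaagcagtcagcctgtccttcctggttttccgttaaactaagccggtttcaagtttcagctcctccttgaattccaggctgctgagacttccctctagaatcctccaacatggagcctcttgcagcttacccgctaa
The AIFM2 window held the antioxidant response element core on the reverse strand, with its first base at -22 from the start, and these letters also contain an AP-1 site, TGACTCA. The GPX8 window held the C/EBP-ATF core on the reverse strand, with its first base at -189 from the start. Of all 35116 promoter windows, 13.3% held the antioxidant response element core and 3.62% the C/EBP-ATF core. The kappaB site, in 1.91% of all windows, and the heat shock element, in 0.490%, matched in no window of the members. A match says only that these letters are there. The windows given for the other members, SOD2 included, held none of the 4 motifs in the letters searched. Sites outside these windows or with other letters were not searched for. The lack of a match therefore does not show that a member, SOD2 included, lacks such a site.

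Per length of transcript, the order of the members depended on the transcript length used. Lengths came from GENCODE while the counts rest on a RefSeq gene model, and how far their exons differ was not examined. Taking the CPM per kilobase of all annotated exons (GENCODE release 29), the mitocurcumin libraries gave 59.1 ± 1.23 for ACSL4 and 58.3 ± 2.41 for SOD1, whose ranges overlapped, then 53.4 ± 1.01 for SOD2, 38.3 ± 1.17 for GPX4 and 36.0 ± 0.637 for GPX8 (SD, n = 3). GPX1 (21.8 ± 1.55) and CAT (20.5 ± 1.26), which overlapped, and GPX3 (15.8 ± 1.85), AIFM2 (8.30 ± 0.242) and GPX7 (1.07 ± 0.153) followed. The vehicle libraries gave 61.9 ± 4.24 for ACSL4 and 55.6 ± 5.43 for SOD1, also overlapping, then 36.6 ± 0.90 for GPX4 and 28.8 ± 0.111 for GPX8. SOD2 (22.4 ± 0.824), CAT (21.2 ± 0.936), GPX1 (19.5 ± 4.10) and GPX3 (18.8 ± 1.29) came next in the vehicle libraries, each overlapping the next in range, and AIFM2 (5.11 ± 0.490) and GPX7 (1.22 ± 0.375) came last. On this length SOD2 was thus in place 3 in mitocurcumin libraries and place 5 in vehicle libraries.

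With the longest transcript that has a consensus coding sequence, SOD1 led in both groups, at 122 ± 5.03 in mitocurcumin libraries and 116 ± 11.3 in vehicle libraries, followed by GPX4 and then ACSL4. SOD2 was in place 4 in mitocurcumin libraries, at 68.2 ± 1.29, and in place 7 in vehicle libraries, at 28.6 ± 1.05. GPX3 was in place 7 in mitocurcumin libraries and in place 4 in vehicle libraries, where its range overlapped that of GPX8. The annotated exons of SOD2 sum to 18206 bases and its longest such transcript has 14266, while its shortest has 815. With the shortest such transcript of each gene, SOD2 was highest in both groups, at 1194 ± 22.7 in mitocurcumin libraries and 501 ± 18.4 in vehicle libraries, ahead of GPX8 at 134 ± 2.38 in mitocurcumin libraries and of SOD1 at 116 ± 11.3 in vehicle libraries. AIFM2 and GPX7 were the lowest under each of the 3 lengths in both groups.

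**Figure D3:**
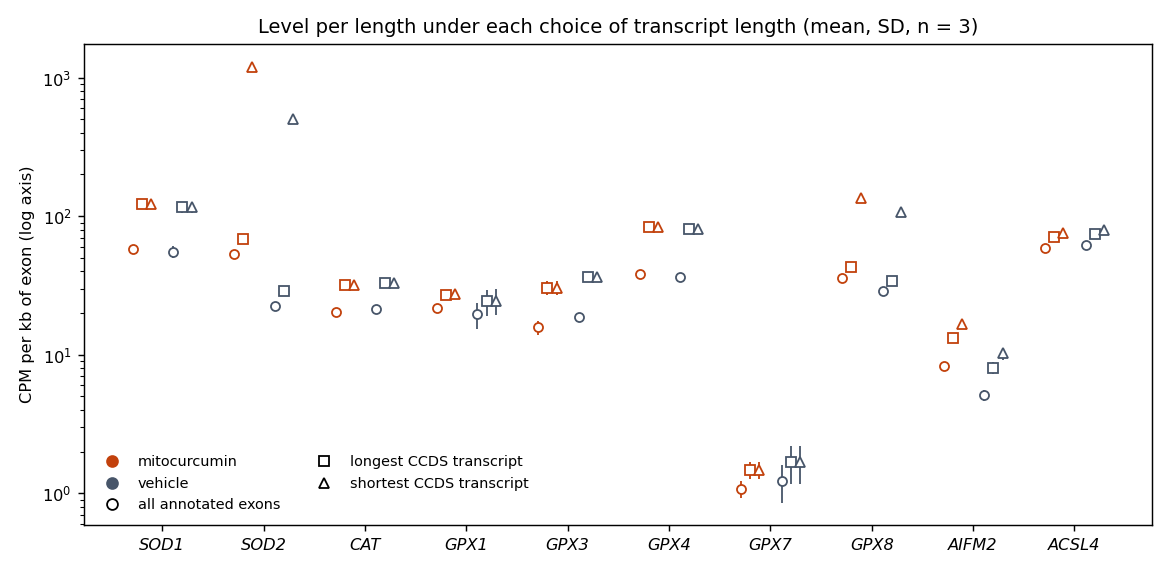
CPM per kilobase of transcript (vertical log axis) for each gene in mitocurcumin and vehicle libraries, as mean and SD of 3 libraries, with 1 symbol for each of 3 lengths. The SOD2 points lie over 20-fold apart between lengths, and those of SOD1, CAT, GPX1, GPX3 and GPX4 lie within 3-fold.

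By likeness of profile, measured as the root mean square distance of log2 CPM centred on each gene's mean over the 6 libraries, the genes nearest to SOD2 among 9637 at a mean of at least 10 CPM were MAP1LC3B at 0.0300 and KLHL24 at 0.0335. Nearest to AIFM2 were LRATD2 at 0.0378 and NFE2L1 at 0.0445, to GPX8 UBR2 at 0.0101 and TRAF3IP2 at 0.0143, and to GPX3 TAF6 at 0.0358 and IGF1R at 0.0397. These are descriptions of likeness over 6 libraries that fall into 2 groups.

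Among 11 further genes of superoxide and peroxide removal, 8 were tested, 1 was higher and 0 were lower. The higher gene was PRDX5, a peroxiredoxin of mitochondria, peroxisomes and the cytosol, with 48.4 ± 2.48 CPM in mitocurcumin libraries and 36.4 ± 3.05 CPM in vehicle libraries (SD, n = 3), a change of 0.41 ± 0.08 (edgeR adjusted p = 0.00103). The extracellular SOD3 (0.12 ± 0.27) and CCS, the copper chaperone of SOD1 (0.23 ± 0.14), did not pass. GPX2, GPX5 and GPX6 did not reach the count filter. The list's median was 0.12, against -0.01 over all genes tested, and 12.5% of its tested genes were called, against 32.5% of all genes tested. Without vehicle replicate 1, 4 genes passed, PRDX2, PRDX3 and PRDX6 in addition. Calls over all genes also rose in that fit, from 5363 to 6088.

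All 11 genes listed for selenoprotein synthesis, selenium uptake and binding were tested, with 2 higher, SEPSECS and SEPHS2, 2 lower, LRP8 and SEPHS1, a median of 0.03 and 36.4% called, against the same 32.5%. SEPSECS, which completes selenocysteine on its tRNA, had 19.6 ± 1.38 CPM in mitocurcumin libraries and 10.3 ± 2.12 CPM in vehicle libraries (SD, n = 3), a change of 0.92 ± 0.13 (edgeR adjusted p = 5.60e-05). SEPHS2, the selenophosphate synthetase, changed by 0.22 ± 0.07 (edgeR adjusted p = 0.0230), a call lost in 5 of the 6 fits that left out 1 library, all but that without vehicle replicate 1. LRP8, a receptor that takes up selenoprotein P, had 57.5 ± 2.27 CPM in mitocurcumin libraries and 89.5 ± 4.25 CPM in vehicle libraries, a change of -0.64 ± 0.06 (edgeR adjusted p = 1.05e-06). SEPHS1, a paralog of SEPHS2 that does not make selenophosphate, changed by -0.28 ± 0.05.

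Around AIFM2 and ACSL4, 27 genes that supply, oxidise or protect membrane lipids were listed and 25 tested, with 4 higher, 8 lower, a median of -0.06 and 48.0% called, against 32.5% of all genes tested. The higher genes were ACSL1 and the lipoxygenases ALOX12, ALOX12B and ALOXE3, of which ALOX12 changed by 0.97 ± 0.30 (edgeR adjusted p = 0.0190) at only 1.99 CPM in mitocurcumin libraries and 1.02 CPM in vehicle libraries. ALOXE3 stood at 1.46 CPM in mitocurcumin libraries and 0.214 CPM in vehicle libraries, and ALOX12B at 0.520 CPM in mitocurcumin libraries and 0.121 CPM in vehicle libraries. Among the lower genes was MBOAT1, a lysophospholipid acyltransferase, at -0.46 ± 0.13 (edgeR adjusted p = 0.00947), with 8.17 CPM in mitocurcumin libraries and 11.3 CPM in vehicle libraries. Leaving out mitocurcumin replicate 3 left 6 of the 12 calls and ended those of ALOX12 and ALOX12B. Over all genes, that fit called 4100, against 5363 with all 6 libraries. The ALOX12 call was also lost without vehicle replicate 2, that of ALOX12B without vehicle replicate 3, and that of ACSL1 without mitocurcumin replicate 1 or 2 or vehicle replicate 3.

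Of 22 genes that produce superoxide or hydrogen peroxide, 14 were tested, with 2 higher and 4 lower. ERO1B was among the higher genes, and the lower genes were NOX5, MAOB, ERO1A and QSOX2. The list's median was -0.04, against -0.01 over all genes tested. Of its tested genes 42.9% were called, against 32.5% of all genes tested. NOX5, a calcium-regulated NADPH oxidase, had 3.65 ± 0.381 CPM in mitocurcumin libraries and 9.34 ± 0.910 CPM in vehicle libraries (SD, n = 3), a change of -1.36 ± 0.16 (edgeR adjusted p = 4.70e-06). MAOB, a monoamine oxidase of the mitochondrial outer membrane, changed by -0.82 ± 0.18. ERO1B, an oxidase of the endoplasmic reticulum that forms disulfides and releases hydrogen peroxide, changed by 0.42 ± 0.11, a call lost without mitocurcumin replicate 1, and that of QSOX2 was lost without mitocurcumin replicate 2 or 3 or vehicle replicate 2.

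Catalase works in peroxisomes, and of 25 genes of peroxisomal import and oxidation 23 were tested, with 1 higher, 8 lower and a median of -0.08. The 39.1% called stood beside 32.5% of all genes tested, with 17.8% of all genes called lower. ACOX2 and ACOX3, oxidases that release hydrogen peroxide, changed by -0.64 ± 0.23 and -0.57 ± 0.16 (edgeR adjusted p = 0.0400 and 0.0121), at 1.88 and 6.43 CPM in mitocurcumin libraries, against 2.93 and 9.54 CPM in vehicle libraries. The ACOX2 call was lost in each of the 6 fits that left out 1 library and under DESeq2, and that of ACOX3 without mitocurcumin replicate 2 or 3. The 9 calls became 5, 4 and 5 when mitocurcumin replicate 1, 2 or 3 was left out. Over all genes, the 5363 calls became 4188, 4181 and 4100 in the same fits.

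**Figure D4:**
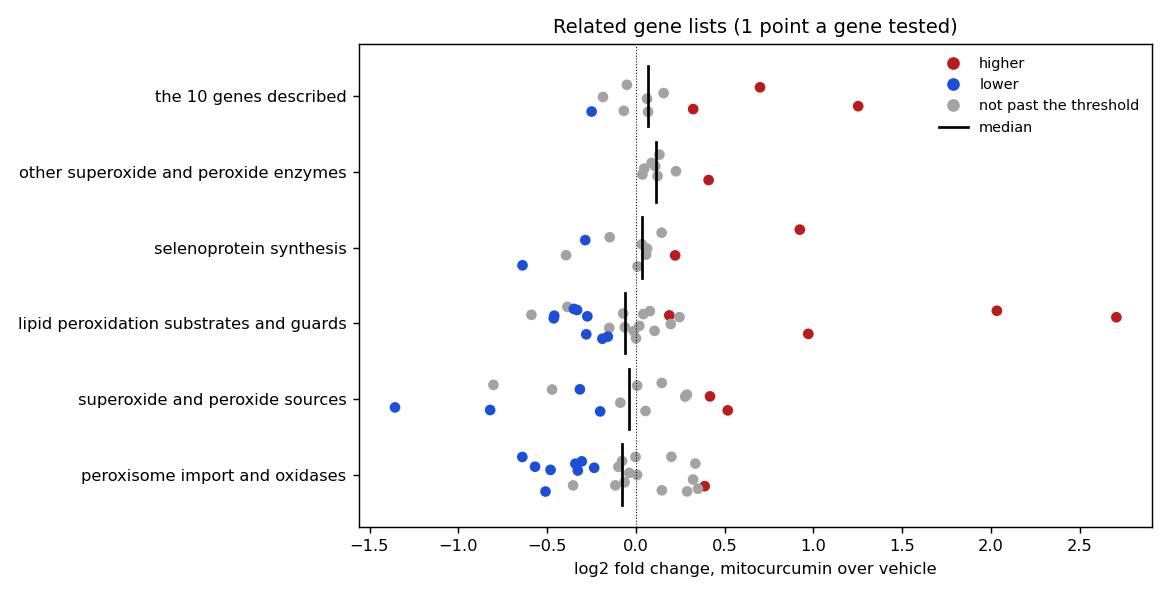
Log2 fold change of mitocurcumin over vehicle (horizontal axis) for each tested gene of the 10 described and of 5 related lists, with 1 point a gene coloured by call and a line at each median. The medians lie between -0.08 and 0.12, and SOD2 and AIFM2 lie to the right of all other superoxide and peroxide enzymes tested.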

How the data were processed

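The raw columns held the authors' deposited estimated counts, taken as unscaled because library totals differed, and 20.1% to 21.4% of values above 0 were whole. The deposited normalized columns were on a log2 scale and, checked on values above 0, equalled the log2 raw value less a constant for each library. Per the file headers the gene model was RefSeq, and per the submitters' processing notes the build was GRCh38. Aligner, counter and strand setting: not given in the sources used here. Columns were matched to samples by treatment word and replicate number. The column headings also carry an S number, which for mitocurcumin replicate 2 lies far from those of the other libraries. What that number marks is not given.

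Estimated counts were rounded and fitted over all genes in R 4.3.3 with edgeR 4.0.16 (TMM scaling, filterByExpr with a minimum count of 10 and total of 15, robust quasi-likelihood F-test, group as the only term), with Benjamini-Hochberg adjustment. The design had assumed whole counts. CPM values use TMM-scaled totals. SEs were taken as coefficient over square root of F, and the fit was tested on simulated data. The members, the 5 related lists and the motifs were chosen with earlier results of these data known. From each list the text names the 2 called genes with the largest change (mean CPM 1 or more), and others where a count of 5 or fewer is spelled out or, for the genes left uncalled (SOD3, CCS, GPX2, GPX5 and GPX6), after their values were seen. Genes overlapping a member, and for each called member the 2 genes of nearest profile (log2 CPM with a prior count of 2), are also named. A few listed genes are counted but not reported here by name. Alternatives included DESeq2 1.42.0 and limma 3.58.1.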

Additional observations from a re-analysis of the deposited data

How the results depend on the processing

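Over 18 alternatives (other scalings, filters and tests, unrounded counts, protein-coding genes alone, a stricter threshold, a replicate term and each library left out in turn), SOD2 ranged from 1.24 to 1.29, AIFM2 from 0.64 to 0.75 and GPX8 from 0.32 to 0.35, each past the threshold in all 18. GPX3 ranged from -0.32 to -0.17 and missed the threshold in 6 of 18: the 4 left-out libraries named above, upper quartile scaling (adjusted p = 0.0536) and the stricter threshold of 0.01. GPX1 passed in 1. No called member reversed. At a threshold of 0.01, the lipid peroxidation list had 6 calls in place of 12 and the peroxisome list 4 in place of 9, by construction. With each library left out in turn, the calls ran from 1 to 4 for other superoxide and peroxide enzymes. For selenoprotein synthesis they ran from 3 to 4, and for the lipid peroxidation list from 6 to 14. For the peroxisome list they ran from 4 to 10. Calls over all genes ran from 4100 to 6088 in the same fits, against 5363 with all 6 libraries. The cause was not tested.

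Same-numbered libraries deviated from their group means with correlations of 0.101, 0.017 and -0.010, and differently numbered ones with -0.109 to 0.091. With 3 libraries per group, these values cannot show whether the numbers mark a shared day or batch. With the replicate number as a block, 5806 genes and 4 members were called, against 5363 and 4 without it. Not every library correlated best with its own number. GPX7, at 1.54 to 2.80 CPM, ranged from -0.33 to 0.09, with the positive value where vehicle replicate 1 was left out; how far depth set this was not tested.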
